A study of Mus musculus with 18 samples.

Results

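The genes of 10 transcriptional cofactors of p53 were followed through p53 restoration and targeting of cyclophilin A. They were chosen by name as the rows of the deposited expression table for 10 of 25239 genes. Ep300, Crebbp, Kat5 and Kat2b encode acetyltransferases. Brd7 encodes a bromodomain protein, and Jmy an actin-nucleating coactivator. Ppp1r13b, Trp53bp2 and Ppp1r13l encode ASPP1, ASPP2 and iASPP, and Trp53bp1 encodes 53BP1. All 10 passed the filter on low values (TPM, a length-scaled share of all transcripts, of 1 or more in at least 3 samples), as did 12828 genes in all.

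RNA was sequenced from 3 mouse small cell lung cancer (SCLC) lines, 4711-1, 4711-18 and 4716-11, of a class named Type D because its cells die when p53 returns. All cells, Control samples included, lack Rb1 and Rbl2 and carry a Trp53 allele silenced by a gene trap, which FlpO-ER removes once 4-hydroxytamoxifen (4-OHT) is given. Each line expressed Cas9 with sgBgal (an sgRNA against beta-galactosidase, the control) or with sgPpia#3.2 or sgPpia#4.1 against Ppia, the cyclophilin A gene, and was kept for 72 h either in vehicle, called Control, or in 500 nM 4-OHT, called Restored. This gave 6 conditions with 1 sample from each of the 3 lines, 18 samples in all, and per the study such targeting lowered cyclophilin A without removing it.

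As background, p53 is a transcription factor that needs partners to open chromatin and to choose among its targets. p300 and its close relative CBP acetylate both p53 and histones, and JMY works with p300. Tip60, the product of Kat5, and PCAF, the product of Kat2b, acetylate p53 at other lysines and belong to larger complexes. BRD7 binds p53 and p300 and is a subunit of the PBAF chromatin remodeller. The ASPP proteins bind the DNA-binding domain of p53: ASPP1 and ASPP2 favour its action on death genes, whereas iASPP inhibits it. 53BP1 was found as a p53-binding protein and is best known for its part in the repair of DNA breaks.

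The targeted genes were read first as a check of the labels. Trp53 ranged from 5.45 to 8.41 TPM over 9 Control samples and from 181 to 236 TPM over 9 Restored samples. Cdkn1a, the p53 target that encodes the cell cycle inhibitor p21, ranged from 99.4 to 369 TPM without and from 1565 to 3806 TPM with restoration. Ppia differed from sgBgal by -1.51 (sgPpia#3.2) and -0.61 (sgPpia#4.1) on the log2 scale in Control cells and by -1.13 and -0.44 in Restored cells, and it was lower in 12 of 12 pairs of samples of the same line. No difference passed the unpaired test (limma on log2(TPM + 1), adjusted p = 0.472 for the first and 1 for the others). With the line as a block both sgPpia#3.2 differences passed (adjusted p = 0.00153 and 0.0431) and those of sgPpia#4.1 did not (adjusted p = 1 and 0.969). Of the neuroendocrine markers that define most SCLC, Calca was at or near 0 (at most 0.0181 TPM), and the 9 markers summed to between 15.6 and 37.4 TPM. The 5 epithelial markers summed to between 9581 and 17779 TPM in Control and between 4906 and 11739 TPM in Restored samples. They were uneven, with medians over all samples of 5427 TPM for Krt8, 4528 for Krt18, 471 for Cdh1 and 36.6 for Dsp. Epcam had a median of 0.563 TPM and at most 6.25. Of the 5, 2 fell, where 11.2% of tested genes did, or 4 fell and 1 rose with the line as a block, where 19.3% fell and 44.1% rose. Fibroblast and endothelial markers summed to at most 1.14 and 1.51 TPM. The leukocyte list rose from at most 7.19 TPM to at least 21.7 TPM with restoration, through Cd68, while its defining marker Ptprc stayed at or under 0.0814 TPM. The part of these markers in the results on the cofactors was not tested, and in bulk RNA fewer cells of a kind and less RNA per cell cannot be told apart. Relative depth, read from the smallest steps in the values, spanned 1 to 1.77. By the same steps each cofactor value rested on between 561 reads (Ppp1r13b) and 14478 reads (Ppp1r13l), whose counting error alone is between 4.22% and 0.831%.

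Promoter sequence is shown for the pair of cofactor genes that kept their call after rescaling of the samples (described with the results on restoration), so that a reader can see the stretch just before each start. Both are the 250 bases before the RefSeq transcription start in build GRCm38.p6, written 5′ to 3′ on the strand of the gene, with the letters CATG (a common core of a p53 half-site) and GGGCGG (the GC box bound by Sp1) in capitals where found on either strand. The Ppp1r13l stretch is chr7:19360966-19361215 on the plus strand and the Jmy stretch is chr13:93499809-93500058 on the minus strand.
Ppp1r13l: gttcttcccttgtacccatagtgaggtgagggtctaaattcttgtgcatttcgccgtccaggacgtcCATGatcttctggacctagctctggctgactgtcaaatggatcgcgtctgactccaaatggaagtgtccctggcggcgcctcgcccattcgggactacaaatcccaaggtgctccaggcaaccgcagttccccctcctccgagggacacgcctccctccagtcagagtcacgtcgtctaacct
Jmy: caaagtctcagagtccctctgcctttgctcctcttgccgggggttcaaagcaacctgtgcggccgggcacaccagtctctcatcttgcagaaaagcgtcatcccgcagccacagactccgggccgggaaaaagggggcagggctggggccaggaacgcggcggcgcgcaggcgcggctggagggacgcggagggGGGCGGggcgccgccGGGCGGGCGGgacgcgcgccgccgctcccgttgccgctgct
The Ppp1r13l stretch held 1 CATG and was 56.8% G or C. The Jmy stretch held 3 GGGCGG, of which the last pair overlap, and was 72% G or C. Across windows that run from 250 bases before to 50 bases after the start, the 10 genes had 12 windows. GGGCGG was found in 9 of the 12 windows and in 35.7% of all 32851 RefSeq windows of that length. CATG was found in 7 of 12 and in 61.1% of all, and CCAAT in 3 of 12 and 37.4%. The p53 half-site consensus was in none of the 12 windows and in 8.36% of all. CATGNNNNNNCATG, a spacing of cores as in a full p53 site, was in none of the 12 windows and in 0.712% of all. These matches describe letters in a short window and say nothing of binding elsewhere.

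The cofactors spanned a wide range of levels. TPM is scaled by transcript length, so levels of different genes can be set side by side. In Control cells Brd7 was highest, with 53.9 TPM as the lowest, 66.4 as the median and 74.0 as the highest of 9 samples. Kat5 followed at a median of 51.9 TPM (25.6 to 62.1), and the order of Brd7 over Kat5 held in 9 of 9 samples. A group of 4 genes then lay close together, with Trp53bp2 at a median of 21.7 TPM, Ppp1r13l at 20.8, Kat2b at 20.1 and Ep300 at 19.4. Neighbours among these were not separated, with Trp53bp2 above Ppp1r13l in 5 of 9 samples, and Ppp1r13l above Kat2b and Kat2b above Ep300 in 7 of 9 each. The lowest were Jmy at a median of 8.43 TPM, Crebbp at 8.16, Trp53bp1 at 7.12 and Ppp1r13b at 6.98, and Jmy exceeded Crebbp in only 3 of 9 samples. p300 RNA was thus present at a higher level than CBP RNA, and ASPP2 RNA at a higher level than ASPP1 RNA, in these Control cells.

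In Restored cells the order changed at the top. Ppp1r13l, number 4 in Control cells, became the highest of the 10 with a median of 125 TPM (97.7 to 160), above Brd7 at 80.1 TPM in 9 of 9 samples. The others followed in the order Kat5 (47.2 TPM), Kat2b (28.3), Ep300 (24.5), Trp53bp2 (23.3), Jmy (14.2), Crebbp (10.04), Trp53bp1 (9.73) and Ppp1r13b (7.78), in which Ep300 stood above Trp53bp2 in only 4 of 9 samples.

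**Figure D1:**
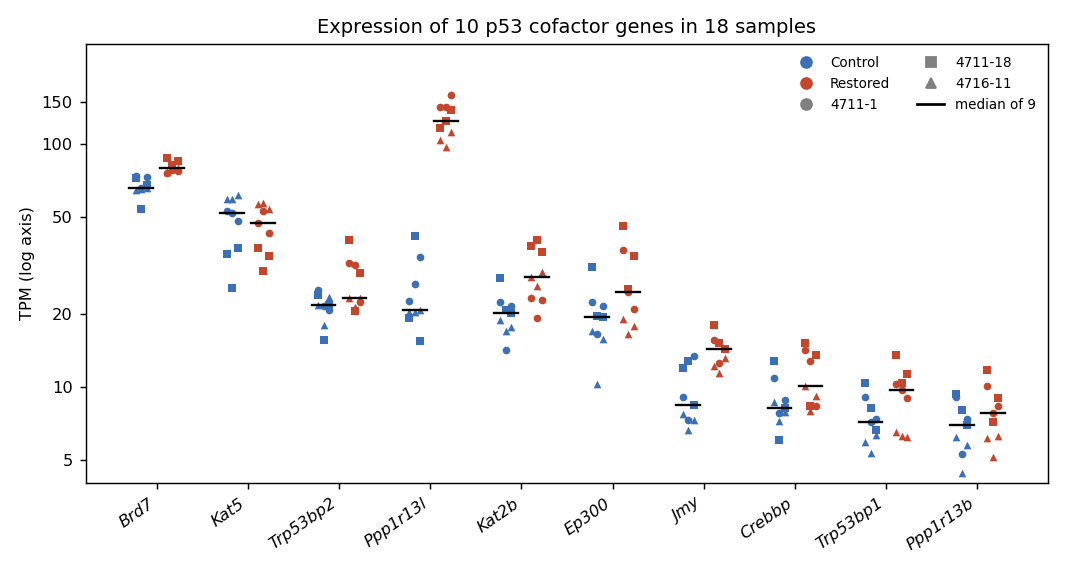
TPM (log axis) of the 10 cofactor genes in 18 samples, Control in blue and Restored in red, with a symbol for each line and a black bar at the median of 9 samples. Ppp1r13l moves from a Control median of 20.8 TPM to a Restored median of 125 TPM, while the other genes shift by far less.

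The first comparison asked how restoration of p53 changed its own cofactors. The inhibitory member of the ASPP family stood out. In 4711-1, Ppp1r13l went from 22.5 to 143 TPM with sgBgal, from 26.7 to 143 with sgPpia#3.2 and from 34.2 to 160 with sgPpia#4.1. In 4711-18 it went from 19.2 to 117, from 41.8 to 125 and from 15.4 to 138 TPM in the same order. In 4716-11 it went from 20.3 to 105, from 20.3 to 97.7 and from 20.8 to 112 TPM. Every Restored sample was higher than every Control sample, and 8.12% of tested genes were separated in this direction. The ratio within a line and sgRNA was between 2.99 and 8.99 with a median of 5.35.

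Ppp1r13l passed the test with each sgRNA. The log2 fold change was 2.49 (SE 0.285) with sgBgal, 2.05 (SE 0.285) with sgPpia#3.2 and 2.55 (SE 0.285) with sgPpia#4.1 (limma with Benjamini-Hochberg adjustment over all genes tested, adjusted p = 6.05e-05, 0.000362 and 6.46e-05). It was the only 1 of the 10 cofactors called in each of these comparisons, where 9.86%, 7.62% and 7.16% of all tested genes were called higher. With the line as a block in the model, 3, 5 and 3 cofactors were called, where 42.1%, 34.1% and 35.1% of tested genes were called. Averaged over the 3 sgRNAs the change was 2.36 (SE 0.165, adjusted p = 8.35e-08 by limma), and 0.787% of tested genes had a higher one. It was also the only cofactor past a log2 fold change of 1 there, a mark that 8.93% of tested genes passed with the call. By line the mean change was 2.39 in 4711-1, 2.40 in 4711-18 and 2.30 in 4716-11.

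The sample of 4711-18 with sgPpia#3.2 in the Control state had the highest Control level of Ppp1r13l (41.8 TPM, against 15.4 to 34.2 in the other 8). It also had the highest Control level of Cdkn1a (369 TPM, against 99.4 to 171) and the lowest of Trp53 (5.45 TPM, against 5.81 to 8.41). The same sample was lowest of the Control samples for Kat5, Brd7, Crebbp and Trp53bp2. Without it, in a fit chosen after seeing the data, the change of Ppp1r13l with sgPpia#3.2 was 2.32 and that over the 3 sgRNAs 2.45.

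The activating ASPP genes did not pass the unblocked test over the 12828 genes. Ppp1r13b, for ASPP1, lay between 4.38 and 9.32 TPM (median 6.98) in Control and between 5.11 and 11.7 TPM (median 7.78) in Restored samples. Trp53bp2, for ASPP2, lay between 15.6 and 25.2 TPM (median 21.7) in Control and between 20.6 and 40.2 TPM (median 23.3) in Restored samples. The states overlapped for both genes. The mean log2 fold change was 0.17 (95% interval -0.14 to 0.48) for Ppp1r13b and 0.32 (0.06 to 0.58) for Trp53bp2 (limma, adjusted p = 0.381 and 0.0518, or 0.0566 and 0.0221 with the line as a block). On the deposited scale Trp53bp2 lay at the threshold, with adjusted p = 0.0490 under a filter of 1 TPM in 9 samples, 0.0492 with trend and robust options of eBayes, and 0.0686 when sgRNAs were averaged per line before the block. After rescaling of the samples, described below, the change of Trp53bp2 was 0.12 (limma adjusted p = 0.423, or 0.326 with the block).

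Within the family the balance of RNA therefore differed between the states. The level of Ppp1r13l divided by the summed level of Ppp1r13b and Trp53bp2, both in TPM, was between 0.538 and 1.77 (median 0.729) in the 9 Control samples and between 2.25 and 5.23 (median 3.60) in the 9 Restored samples. No Restored ratio fell within the Control range. This ratio was chosen after the values were seen and carries no test.

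**Figure D2:**
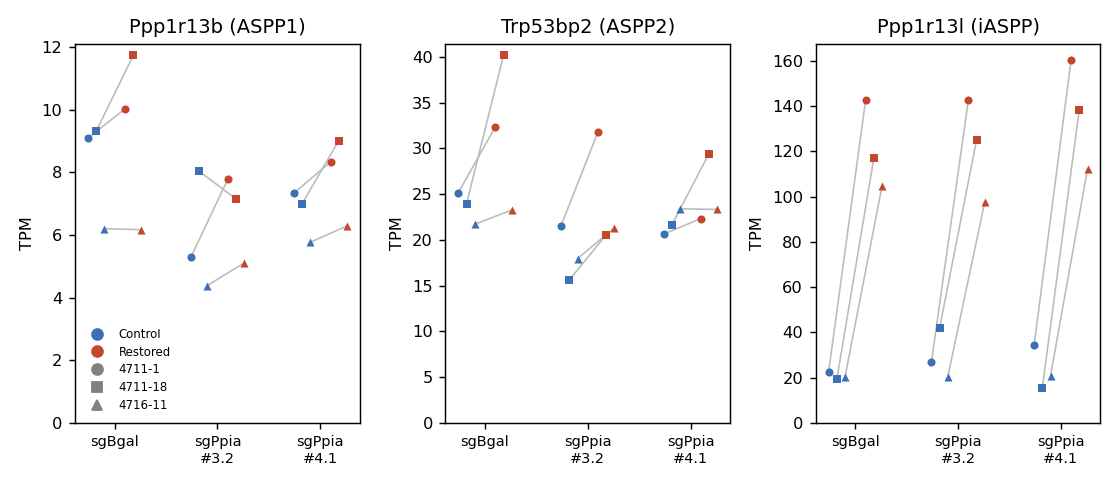
TPM of the 3 ASPP family genes by sgRNA, with a grey line from the Control (blue) to the Restored (red) sample of the same line. Ppp1r13l went up by a ratio of at least 2.99 in every pair, whereas Ppp1r13b and Trp53bp2 moved less and overlapped between the states.

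Jmy showed the next largest change with sgBgal and over the mean of sgRNAs, whereas with sgPpia#3.2 and sgPpia#4.1 the log2 fold change of Kat2b (0.64 and 0.54) was above that of Jmy (0.55 and 0.52). With sgBgal it went from 9.03 to 15.5 TPM in 4711-1, from 11.96 to 18.0 in 4711-18 and from 7.71 to 12.1 in 4716-11. With sgPpia#3.2 it went from 7.26 to 12.5, from 12.7 to 15.2 and from 6.62 to 11.4 TPM in the same lines. With sgPpia#4.1 it went from 13.3 to 14.2, from 8.43 to 14.3 and from 7.26 to 13.2 TPM. All 9 pairs went up, as they did for 30.8% of tested genes, although the states overlapped because the highest Control sample (13.3 TPM) exceeded the lowest Restored sample (11.4 TPM).

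Kat2b and Brd7 also went up in 9 of 9 pairs. Kat2b lay between 14.2 and 28.1 TPM (median 20.1) in Control and between 19.2 and 40.4 TPM (median 28.3) in Restored samples, with overlap. Brd7 lay between 53.9 and 74.0 TPM in Control and between 76.4 and 87.6 TPM in Restored samples. The states of Brd7 did not overlap, as for 8.12% of tested genes in this direction, but the gap was only a few TPM. In 4711-1 with sgBgal, Brd7 moved from 74.0 to 76.4 TPM, the smallest step of the 9.

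Averaged over the 3 sgRNAs, 4 of the 10 cofactors were called higher and 0 lower, where 27.9% of all tested genes were called higher and 11.2% lower. Beside Ppp1r13l these were Jmy (log2 fold change 0.56, SE 0.146, adjusted p = 0.00701 by limma), Kat2b (0.51, SE 0.154, adjusted p = 0.0172) and Brd7 (0.26, SE 0.0736, adjusted p = 0.0109). Without the block none of these 3 was called with any sgRNA alone, except that Brd7 was called with sgPpia#3.2 when genes of any level above 0 were tested (adjusted p = 0.0162). With the block, Jmy was called with each sgRNA (adjusted p = 0.0168, 0.0350 and 0.0439), Kat2b with sgPpia#3.2 and sgPpia#4.1 (0.0109 and 0.0258) and Brd7 with sgPpia#3.2 (0.0178). With the block after rescaling, described below, only Kat2b with sgPpia#3.2 (0.0367) kept its call. Jmy then had adjusted p = 0.0618, 0.105 and 0.112, Kat2b with sgPpia#4.1 0.0772 and Brd7 with sgPpia#3.2 0.226 (limma). Over the mean of sgRNAs without the block, Jmy, Kat2b and Brd7 all lost their call without 4716-11, Jmy also without 4711-1 (adjusted p = 0.0523) and Brd7 also without 4711-18 (adjusted p = 0.0973). With the line as a block, 8 of 10 were called, all higher, where 63.4% of tested genes were called: Ep300, Crebbp, Trp53bp2 and Trp53bp1 joined the 4. When the sgRNAs were first averaged per line, which leaves 1 value per line and state, the block called 4 (Ep300, Kat2b, Jmy and Ppp1r13l) and Brd7 was not called (adjusted p = 0.08003), where 46.1% of tested genes were called.

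Ep300 and Crebbp, the p300 and CBP pair, did not pass the test without the block. Ep300 lay between 10.3 and 31.3 TPM (median 19.4) in Control and between 16.5 and 46.0 TPM (median 24.5) in Restored samples. Crebbp lay between 6.02 and 12.7 TPM (median 8.16) and between 7.91 and 15.2 TPM (median 10.04). Both were higher in 8 of 9 pairs, the exception being 4711-1 with sgPpia#4.1. The log2 fold changes were 0.43 (95% interval 0.004 to 0.85) for Ep300 and 0.31 (0.03 to 0.58) for Crebbp (limma, adjusted p = 0.101 and 0.0713, or 0.00145 and 0.0248 with the line as a block). Averaging sgRNAs per line before the block gave adjusted p = 0.0203 for Ep300 and 0.0529 for Crebbp. After rescaling of the samples, described below, Ep300 changed by 0.24 (limma adjusted p = 0.270, or 0.0211 with the block). Crebbp then changed by 0.12 (limma adjusted p = 0.412, or 0.308 with the block).

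Kat5 and Trp53bp1 complete the set. Kat5 lay between 25.6 and 62.1 TPM in Control and between 30.1 and 57.3 TPM in Restored samples, and it was higher in only 3 of 9 pairs (log2 fold change -0.05, 95% interval -0.46 to 0.37, limma adjusted p = 0.871). Trp53bp1 lay between 5.31 and 10.3 TPM in Control and between 6.19 and 13.5 TPM in Restored samples, and it was higher in 8 of 9 pairs (0.27, 95% interval -0.07 to 0.61, adjusted p = 0.194, or 0.00754 with the line as a block and 0.0876 with sgRNAs averaged per line first). Kat5 was thus the only cofactor with a negative mean change in TPM as deposited. After rescaling of the samples, described below, Trp53bp1 changed by 0.09 (limma adjusted p = 0.601, or 0.235 with the block).

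All genes together shifted upward, and the smaller changes must be read beside that. The median log2 fold change of all tested genes was 0.17 on this scale, with 65.2% of them positive, and the median of the 10 cofactors was 0.31. After rescaling the samples by median-of-ratios size factors, the median of all genes was -0.01 and that of the cofactors 0.12. Ppp1r13l (2.17) and Jmy (0.38, limma adjusted p = 0.0181) were then called, and Kat2b (0.31, adjusted p = 0.0695) and Brd7 (0.07, adjusted p = 0.533) were not, where 18.0% of tested genes were called higher and 19.0% lower. With both the rescaling and the block, a fit chosen after seeing the data, Ep300, Kat2b, Jmy and Ppp1r13l were called higher and Kat5 lower (-0.24, adjusted p = 0.0178), where 30.3% of tested genes were called higher and 31.1% lower.

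**Figure D3:**
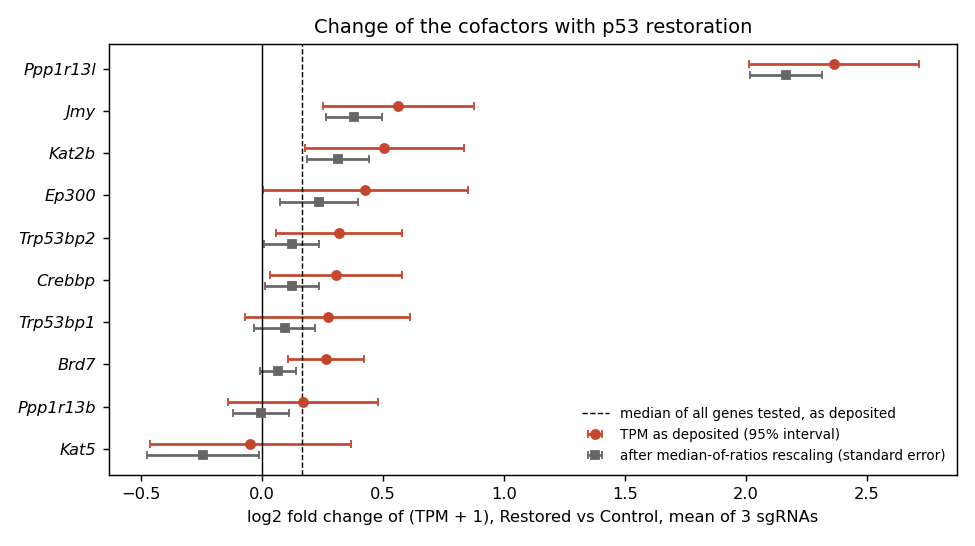
Mean log2 fold change of (TPM + 1), Restored against Control over 3 sgRNAs, for the 10 cofactors. Red points show the deposited values with 95% intervals, grey squares the values after rescaling with standard errors, and the dashed line the median of all tested genes (0.17). Ppp1r13l stands apart at 2.36, or 2.17 after rescaling, and the next is Jmy at 0.56, or 0.38.

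Gene length moved with these changes. Tested genes were ranked by the exonic length of their annotated transcripts and divided into 10 bins of nearly equal number. The median change with restoration climbed from 0.02 in the shortest bin to 0.32 in the longest. Ep300 (9566 bases), Crebbp (10820), Jmy (8858) and Trp53bp1 (9621) all fall in the longest bin, so that Crebbp (0.31) and Trp53bp1 (0.27) lay at or below the median of genes of their length. Jmy (0.56) and Ep300 (0.43) lay above it. Ppp1r13l (3130 bases) is in bin 5, where the median change was 0.15, Kat2b (4653 bases) in bin 8, where it was 0.25, and Brd7 (3625 bases) in bin 6, where it was 0.18. The part of length in the cofactors' changes was not tested.

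**Figure D4:**
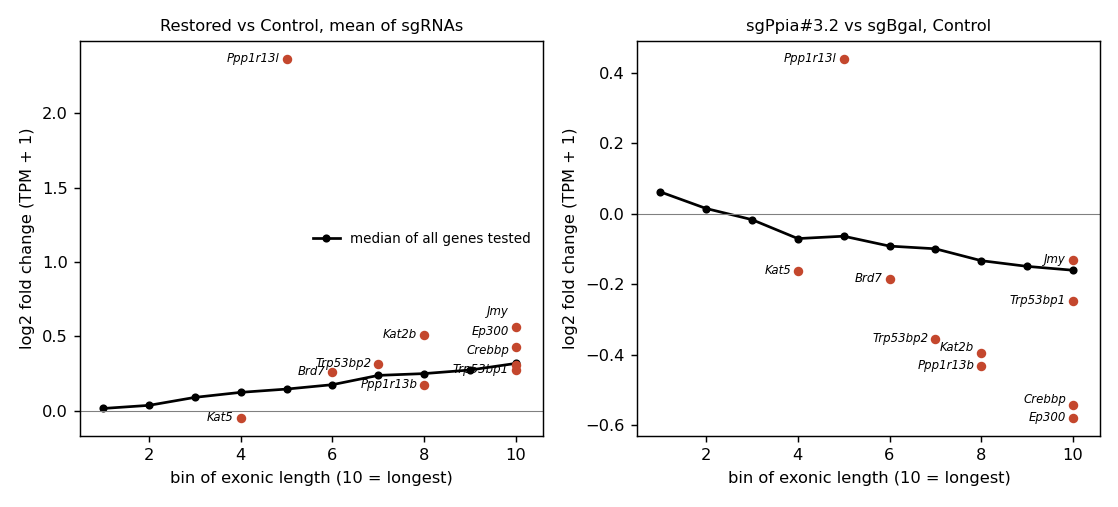
Log2 fold change of (TPM + 1) against the bin of exonic length, from 1 (shortest) to 10 (longest), for restoration averaged over sgRNAs (left) and for sgPpia#3.2 against sgBgal in Control cells (right). The black line is the median of all tested genes, running from 0.02 to 0.32 on the left and from 0.06 to -0.16 on the right, and each red point is 1 cofactor.

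The second comparison asked whether targeting cyclophilin A changed the cofactors. No cofactor was called with either sgRNA in either state (limma, 0 of 10 in each of 4 comparisons, where 0.00% of all tested genes were called). Without adjustment, a p under 0.05 was reached by 2.42% of genes for sgPpia#3.2 and 0.210% for sgPpia#4.1 in Control cells, and by 1.20% and 0.530% in Restored cells. Of the cofactors only Crebbp did so, with sgPpia#3.2 in Control cells. With the line as a block 0 of 10 were still called, but an unadjusted p under 0.05 was reached with sgPpia#3.2 by 4 cofactors in Control cells (Ep300, Crebbp, Kat2b and Ppp1r13b) and 3 in Restored cells (Ep300, Crebbp and Ppp1r13b), where 12.7% and 8.64% of all genes reached it. With sgPpia#4.1 it was reached by 0 and 1 (Ep300), where 1.26% and 3.31% of all genes did. All of these were lower than with sgBgal, and the smallest adjusted p of a cofactor was 0.260 (limma). The 4 comparisons use the same sgBgal samples, so they are not independent of each other.

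Ep300 and Crebbp were lower than sgBgal in 3 of 3 lines with both sgRNAs in both states, a pattern shown by 3.41% of tested genes. In Control cells Ep300 was at 22.3, 31.3 and 17.0 TPM with sgBgal in 4711-1, 4711-18 and 4716-11. With sgPpia#3.2 the values were 16.4, 19.6 and 10.3 TPM, and with sgPpia#4.1 they were 21.5, 19.4 and 15.8 TPM. After restoration Ep300 measured 36.5, 46.0 and 19.0 TPM with sgBgal, 24.5, 25.3 and 16.5 with sgPpia#3.2, and 20.9, 34.6 and 17.9 with sgPpia#4.1. The sgBgal sample was the highest of its line each time, though by little in 4711-1 with sgPpia#4.1 in Control cells.

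The log2 differences of Ep300 from sgBgal were -0.58 and -0.53 with sgPpia#3.2 and -0.27 and -0.42 with sgPpia#4.1, in Control and Restored cells respectively. None passed the test without the block (limma, adjusted p at least 0.9998), and the interval of the largest ran there from -1.31 to 0.15. With the line as a block, the SE of this largest difference was 0.164 in place of 0.343. Its unadjusted p was then 0.00354 and its adjusted p 0.260 (limma), so it did not pass either. Crebbp was at 10.8, 12.7 and 8.62 TPM with sgBgal, 7.80, 6.02 and 7.20 with sgPpia#3.2, and 8.80, 8.16 and 7.85 with sgPpia#4.1 in Control cells. Its log2 difference there was -0.54 with sgPpia#3.2 (95% interval -1.01 to -0.07, limma unadjusted p = 0.0273, adjusted p = 0.9998) and -0.33 with sgPpia#4.1. After restoration the differences were -0.41 and -0.33. Several of these values rested on 1 line: without 4711-18, Ep300 with sgPpia#4.1 in Control cells was -0.073, and Crebbp was -0.33 and -0.22 with sgPpia#3.2 in Control and Restored cells and -0.20 with sgPpia#4.1 in Control cells. Without 4711-1, Ep300 and Crebbp with sgPpia#4.1 in Restored cells were -0.24 and -0.14. Both genes belong to the longest bin of exonic length, whose median in Control cells was -0.16 with sgPpia#3.2, against 0.06 in the shortest bin, and the part of length was again not tested.

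No other cofactor was lower than sgBgal in 3 of 3 lines in all 4 comparisons. With sgPpia#3.2 in Control cells 1 of 10 cofactors, Ppp1r13l, had a positive difference from sgBgal. The median of the 10 was -0.30 there and -0.18 in Restored cells, against -0.08 and -0.09 for all tested genes. With sgPpia#4.1 it was -0.15 and -0.13, against -0.04 and -0.07. Ppp1r13l differed by 0.44 (95% interval -0.17 to 1.05) with sgPpia#3.2 and by 0.10 (-0.51 to 0.71) with sgPpia#4.1 in Control cells, and the first value was 0.17 without the 4711-18 sample described above. In Restored cells it differed by less than 0.01 (-0.61 to 0.61) and by 0.17 (-0.44 to 0.78).

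**Figure D5:**
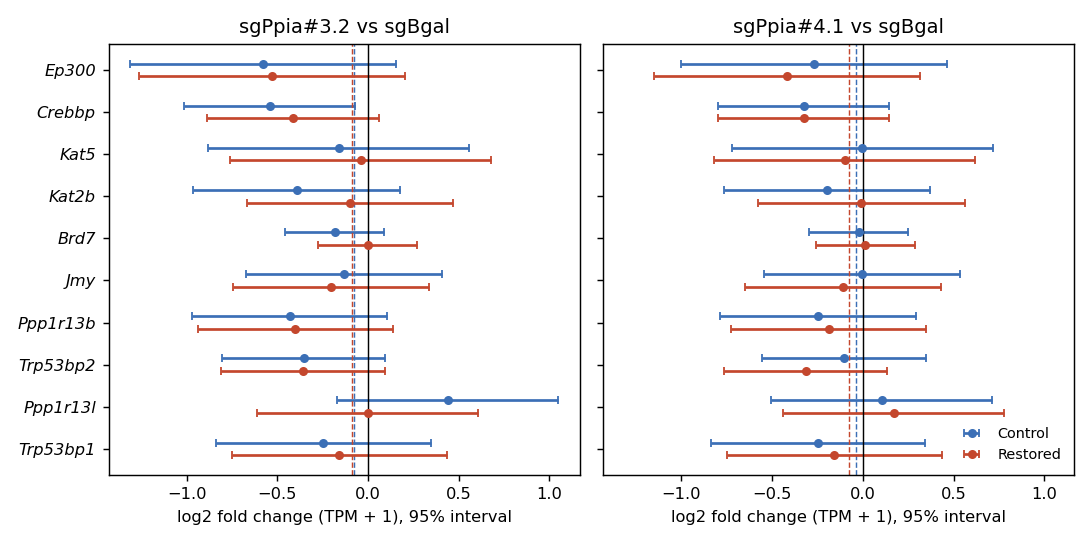
Log2 fold change of (TPM + 1) against sgBgal for the 10 cofactors with sgPpia#3.2 (left) and sgPpia#4.1 (right), Control in blue and Restored in red, with 95% intervals from the model without the line and dashed lines at the median of all tested genes. In that model every interval but that of Crebbp with sgPpia#3.2 in Control cells includes 0.

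The third comparison asked whether the response to p53 depended on cyclophilin A targeting. No cofactor was called for a difference in response from sgBgal (limma interaction, 0 of 10 with each sgRNA, where 0.00% of tested genes were called and 0.242% and 0.140% had an unadjusted p under 0.05). For Ppp1r13l the difference in log2 response was -0.44 (SE 0.403, 95% interval -1.30 to 0.42) with sgPpia#3.2 and 0.07 (-0.80 to 0.93) with sgPpia#4.1. Without the 4711-18 sgPpia#3.2 Control sample the first was -0.17. These intervals are wide, and they do not show that the responses were alike.

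The lines themselves differed in several cofactors. With the condition in the model, 6 of 10 cofactors differed between lines (limma F test, adjusted p under 0.05), where 72.7% of tested genes did. The 6 samples of a line share 1 tumour-derived culture, so p measures the spread between samples of a line, not between tumours. In the 9 Control samples alone, only Ep300 and Kat5 were called, where 36.5% of tested genes were. With all 18 samples, none of the 10 cofactors reached a largest log2 difference of 1, which 15.1% of genes reached with the call. Kat5 had the largest difference, close to that of Ep300. It lay between 25.6 and 37.4 TPM in 4711-18, between 43.1 and 53.2 in 4711-1 and between 54.3 and 62.1 in 4716-11. For Kat5, 4716-11 exceeded 4711-18 by 0.80 on the log2 scale (limma, adjusted p = 1.43e-05).

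For Ep300, Jmy, Ppp1r13b and Trp53bp1 the order was different, with 4716-11 lowest. Ep300 averaged 16.1 ± 3.05 TPM (SD, n = 6) in 4716-11, against 23.7 ± 6.82 in 4711-1 and 29.4 ± 10.2 in 4711-18. The log2 difference between 4716-11 and 4711-18 was -0.79 for Ep300, -0.61 for Trp53bp1, -0.53 for Ppp1r13b and -0.44 for Jmy (limma, adjusted p = 9.6e-05, 0.000148, 0.000274 and 0.0120). For Jmy the F test over lines gave adjusted p = 0.0241, but 0.115 after rescaling. Kat2b was highest in 4711-18, which exceeded 4711-1 by 0.52 (adjusted p = 0.00295). Brd7 was the most even, with lines within 0.04 of each other on the log2 scale.

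The response to restoration was compared between lines in a fit added after the data were seen. No cofactor was called (limma F test, where 2.96% of tested genes were). Kat2b came closest, with log2 changes of 0.18 in 4711-1, 0.72 in 4711-18 and 0.62 in 4716-11 (unadjusted p = 0.0343, adjusted p = 0.235). In 4711-1, Kat2b moved from 22.4 to 23.2 TPM with sgBgal, from 14.2 to 19.2 with sgPpia#3.2 and from 21.6 to 22.9 with sgPpia#4.1. In 4711-18 it moved from 28.1 to 38.0, from 20.8 to 40.4 and from 20.1 to 36.0 TPM, and in 4716-11 from 18.8 to 28.3, from 17.0 to 26.0 and from 17.7 to 29.7 TPM.

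The complexes and partners of the cofactors give a frame for these values. All counts are for restoration averaged over sgRNAs by limma. Those from TPM as deposited stand beside 27.9% of all tested genes called higher and 11.2% lower, those after rescaling beside 18.0% and 19.0%, and those with the line as a block beside 44.1% and 19.3%. Of 10 other lysine acetyltransferase genes, 3 rose and 1 fell, with a median log2 fold change of 0.14. Kat6b rose by 0.69 and Naa60 by 0.42, while Kat2a, which encodes GCN5, the close relative of PCAF, fell by 0.36. After rescaling, 2 of the 10 rose and 2 fell, and with the line as a block 4 rose and 1 fell. Of 17 genes of the TIP60/NuA4 complex, 4 rose and 4 fell around a median of -0.004. They included Ep400 (0.82), the ATPase of the complex, and Epc1 (0.55) among those that rose, and Ruvbl1 (-0.65), an AAA ATPase, among those that fell. Ep400 reached 87.4 TPM in 4711-18 with sgBgal, against at most 47.04 TPM in any other sample. Rescaled, 2 of the 17 rose and 5 fell, and Epc1 was no longer called. With the block 6 rose and 5 fell.

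The partners of PCAF and BRD7 were also divided. Of 14 genes of the SAGA/PCAF complex, 2 rose (Tada2b by 0.67 and Tada3 by 0.48) and 2 fell, among them Supt3 (-0.56), and after rescaling 2 rose and 3 fell, or with the block 5 and 3. Of 13 genes of the PBAF complex, 4 rose and 1 fell, with Bcl7a (0.61), Smarcc1 (0.50) and Smarcc2 (0.48) among those that rose. After rescaling, 1 of these 13 was called higher and 3 lower, so the balance of this list turned with the scale, and Bcl7a and Smarcc1 were not called. With the block 6 rose and 3 fell.

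Other p53 partners were split between rise and fall. Of 16 genes, 4 rose and 6 fell, or 3 and 6 after rescaling and 5 and 8 with the block. Zfp385a, whose product Hzf steers p53 toward arrest genes, rose by 2.47 from at most 25.2 TPM in Control to at least 64.2 TPM in Restored samples. Pml, the scaffold of PML nuclear bodies, rose by 1.72 from at most 19.9 to at least 37.6 TPM. Hmgb1, a chromatin protein that bends DNA, fell by 0.87. Of 11 deacetylase and corepressor genes, 0 were called in either direction without the block. After rescaling 2 were called lower, and with the block 1 was called higher and 2 lower.

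Of 12 repair partners of 53BP1, 3 rose and 1 fell. The 3 that rose were Shld2 (0.74), a shieldin subunit, Rnf168 (0.72), the ubiquitin ligase that recruits 53BP1, and Atm (0.40), the kinase upstream. Rescaled, 2 rose and 3 fell, and Atm was not called. With the block 5 rose and 3 fell. By contrast 13 of 14 p53 target genes rose and none fell on either scale and with the block, with a median log2 fold change of 2.64, led by Cdkn1a (4.08), Mdm2 (3.99), which encodes the ubiquitin ligase of p53, and Ccng1 (3.73). The change of Ppp1r13l was 2.36. These lists were drawn up with earlier results of the same samples known, and the p53 target list was chosen as a check of restoration.

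Genes whose log2(TPM + 1) followed the called cofactors most closely over the 18 samples were named by Pearson's r as a description. For Ppp1r13l these were Sh3yl1 and Hyal1 (both r = 0.98), and after subtraction of condition means Fam102b and Ahr (both r = 0.95). For Jmy they included Bmpr2 (0.98), and then Wwtr1 (0.97) and Pde4dip (0.95). For Kat2b they were Acad12 (0.97) and Pon3 (0.96), and then Acad12 (0.97) and Tshz2 (0.95). For Brd7 they were Mcm3ap (0.94) and Tob1 (0.93), and then Fgd4 (0.87) and Snx19 (0.84). The samples share lines and states, and these are the highest of 12828 values, so a high r can be reached without any relation.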

How the data were processed

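The authors deposited 1 table of TPM values per gene for 18 samples (Type D lines, 6 conditions). Per the labels, reads were demultiplexed with bcl2fastq 2.17 and HISAT2 was used, and the study's methods name Kallisto or HISAT2 without saying which made this table. The build is named both mm10 and GRCm39. Each column sums to the same total, so absolute depth is not known. Read numbers behind the cofactors were inferred from the steps in the values (within 0.02 of whole numbers), up to a common factor, and cover counting error only. No count test was run.

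Genes that reached 1 TPM in 3 or more samples were tested with limma 3.58.1 in R 4.3.3 on log2(TPM + 1), with 1 term per condition and all 18 samples. P-values were adjusted by Benjamini-Hochberg over all 12828 genes, and a call was an adjusted p under 0.05. Fold changes on this scale understate those of low genes. Within 1 sgRNA, groups were compared over lines, which are the replicates. For the mean of sgRNAs, the samples of a line with different sgRNAs entered as separate values, with or without the block. Only the fit that first averaged sgRNAs per line used 1 value per line and state. The numbers pair samples because equal numbers mark the same line: deviations from condition means correlated with a mean r of 0.73 over the 45 pairs of samples of 1 line (lowest 0.58), and of -0.36 over 90 pairs differing in line and condition. The block is given where it changed the call of a cofactor or the count of a list named in the results. Alternatives were the pseudocount, the filter, rescaling, the block, the samples fitted, eBayes options and leaving out each line. The code was tested on simulated data. Exonic lengths came from GENCODE on GRCm38 and promoters from RefSeq.

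All 10 cofactors were named, with Trp53, Ppia and Cdkn1a as checks, and of each list up to 3 genes with the largest called change in mean restoration. For each cofactor called there, the 2 genes of highest r were named, except where an item is not reported here. The cofactors and lists were chosen with earlier results of these data known. Antisense or overlapping transcripts could not be separated, since strand was not stated.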

Additional observations from a re-analysis of the deposited data

How the results depend on the processing

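The call of Ppp1r13l with restoration held with each sgRNA and for their mean under every alternative run. For the mean of sgRNAs, where 4 of 10 cofactors were called (39.1% of tested genes), median-of-ratios rescaling called 2 (37.0%), the replicate block (line as a term, since lines pair the samples) called 8 (63.4%), and leaving out 1 line called 1 to 3, with 3 without 4711-1 (29.1%) or 4711-18 (29.9%) and 1 (Ppp1r13l) without 4716-11 (24.5%). Averaging sgRNAs per line before the block called 4 (46.1%), with Ep300 in place of Brd7, and the stricter filter (40.7%) and the trend and robust options (39.1%) each called 5 by adding Trp53bp2. With the replicate block, the counts were 3 for sgBgal (Ep300, Jmy, Ppp1r13l; 42.1% of tested genes called), 5 for sgPpia#3.2 (Ep300, Kat2b, Brd7, Jmy, Ppp1r13l; 34.1%) and 3 for sgPpia#4.1 (Kat2b, Jmy, Ppp1r13l; 35.1%), against 1 each without it. The block changed no other count of cofactors called. For sgPpia#3.2, no filter gave 2 (Brd7 added; 5.81%), and rescaling with the block, chosen after seeing the data, also gave 2 (Kat2b added; 32.2%). Cofactors called between lines fell from 6 to 2 (Ep300 and Kat5) in the 9 Control samples alone, and genes called from 72.7% to 36.5%. Rescaling dropped Jmy (5 called; 70.6% of genes), and the 9 Restored samples alone dropped Jmy and added Ppp1r13l (6 called; 65.9%).

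Rescaling, with or without the block, turned the direction of 15 of the 100 values (10 cofactors in 10 comparisons), of which 0 were called and the largest was 0.19 before it. With restoration, Brd7 became -0.028 and Ppp1r13b -0.057 with sgBgal, Kat5 -0.13 and Ppp1r13b -0.00060 with sgPpia#3.2, and Ppp1r13b -0.0046 over the sgRNAs. Against sgBgal, Kat5, Kat2b, Brd7 and Ppp1r13l became positive with sgPpia#3.2 in Restored cells (0.066, 0.0077, 0.11 and 0.11), so that positive cofactors went from 0 to 4. With sgPpia#4.1, Kat5, Brd7 and Jmy in Control cells (0.039, 0.021 and 0.034) and Kat2b in Restored cells (0.077) did so. The differences in response that turned were those of Trp53bp2 with sgPpia#3.2 (0.016) and Crebbp with sgPpia#4.1 (0.043). With 1 line left out, Ppp1r13l for sgPpia#3.2 against sgBgal in Restored cells ran from -0.050 to 0.047, positive without 4716-11. For sgPpia#4.1, Ppp1r13l against sgBgal in Control cells ran from -0.14 (without 4711-1) to 0.31, and its difference in response from -0.17 (without 4711-18) to 0.31. The causes were not tested. Of the recomputed values of the cofactors followed through every alternative, 397 kept their direction and side of the threshold, 17 newly passed it, 9 lost it and 9 turned direction. With 3 lines per condition, small changes may have been missed. The fit on only the groups compared gave no separate value for the mean of sgRNAs, which uses all samples.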
